A study of Mus musculus with 22 samples.

Results

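The heat shock genes described here are 10 genes for molecular chaperones and their helpers, chosen by name: Hspa1a, Hspa1b, Hspa8, Hsph1, Dnajb1, Hsp90aa1, Hsp90ab1, Hspb1, Hspd1 and Hspe1. All 10 were found among the 52526 distinct gene symbols of the series, and all 10 were among the 15138 genes that passed the filter on low values. Expression was measured in mammary tissue of 22 female C57BL/6J mice, 7 to 8 weeks old, that had each received EO771 cells, a mammary cancer line of the same strain made to express firefly luciferase, in the fourth mammary fat pad of the left side. Mice had a running wheel, or only its hub (control), for 2 weeks before engraftment, and the tissue was collected 24 hours after it. Each mouse also received liposomes into the blood 24 hours before engraftment and again at engraftment, filled either with buffer (PBS) or with clodronate, a drug that kills phagocytes that take it up. PBS liposomes went to 6 control and 6 wheel mice and clodronate liposomes to 5 of each, all in a single experiment according to the labels. Every mouse therefore carried cancer cells and liposomes, and no untreated tissue was among the groups.

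Chaperones bind proteins that are unfolded or still folding and keep them from clumping. When damaged proteins accumulate, as after heat, hypoxia or injury, the transcription factor HSF1 is released from chaperones, forms a trimer and binds heat shock elements, runs of the unit GAA and its reverse TTC in alternating orientation, in front of the genes. Some chaperones are made at all times and are raised only modestly by stress (Hspa8, Hsp90ab1, Hspd1, Hspe1), while others are kept low in resting tissue and rise steeply under stress (Hspa1a, Hspa1b, Dnajb1, Hsph1, Hspb1). In tumors and dividing cells, the chaperones of the HSP90 family and their partners are known for holding kinases and hormone receptors in an active shape.

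The QuantSeq libraries sample the 3′ end of each transcript, so that reads per transcript hardly depend on its length and levels of different genes could be compared. Values are in CPM (reads scaled to a common total per library), raised to 1 by the authors wherever they were lower. Depth was 13256467 to 20484578 reads per mouse (median 16293026), of which 57.2% to 64.5% were assigned to genes, and 1 CPM stood for 13.3 to 20.5 reads. None of the 10 genes was at the floor in any mouse, the lowest value being 5.03 CPM (Hsph1, wheel with clodronate replicate 1). In 5 mice the lymphocyte markers stood far above the rest (score 4.26 to 5.72, the mean log2(CPM + 1) of 12 genes, against 1.00 to 1.45 in the other 17). These were 1 of 6 control and 1 of 6 wheel mice with PBS liposomes, 0 of 5 control and 3 of 5 wheel mice with clodronate. Adipocyte markers (score 8.91 to 10.3) and mammary epithelium markers (score 5.27 to 6.88) were present in every mouse. The macrophage score, of 10 markers, ranged from 4.14 to 5.50 with PBS and from 4.01 to 5.26 with clodronate liposomes, so the groups overlapped. In bulk tissue, fewer cells of a type and less RNA per cell cannot be told apart.

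Pairs of the 10 genes lie side by side in the genome (GRCm38, GENCODE M21 annotation). Hspa1a (ENSMUSG00000091971.3, chr17:34969190-34972156) and Hspa1b (ENSMUSG00000090877.3, chr17:34956436-34959238) are near-identical copies on the minus strand, 9951 bases apart. Hspd1 (ENSMUSG00000025980.14, chr1:55077835-55088243, minus strand) and Hspe1 (ENSMUSG00000073676.4, chr1:55088132-55091307, plus strand) point away from each other, and their annotated 5′ ends overlap by 112 bases, so they share a promoter region. The RefSeq promoter table (GRCm38.p6, 250 bases before each start site searched) held 7 of the 10 genes, all but Hspa8, Hsp90aa1 and Hsp90ab1. A pair of neighbouring heat shock units, GAANNTTC or TTCNNGAA (each its own reverse complement, so that both strands are covered), was found for 6 of the 7, against 14.55% of 27025 genes in the table. A run of at least 3 alternating units was found for 2 of the 7, Hspd1 and Hspe1, against 0.514% of genes. The windows are shown because they tell which of the genes carry the same element, which is set beside how the genes varied between mice further on. Capitals mark the units.

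Hspe1, chr1:55088053-55088082, plus strand, 89 bases before the start site: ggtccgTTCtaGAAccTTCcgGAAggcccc
Hspd1, chr1:55088053-55088082, minus strand, 144 bases before 1 of its 2 listed start sites: ggggccTTCcgGAAggTTCtaGAAcggacc
Hspa1a, chr17:34972242-34972271, minus strand, 104 bases before the start site: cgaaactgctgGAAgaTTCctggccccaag
Hspa1b, chr17:34959324-34959353, minus strand, 104 bases before the start site: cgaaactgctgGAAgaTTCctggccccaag
Hspb1, chr5:135887791-135887820, plus strand, 117 bases before the start site: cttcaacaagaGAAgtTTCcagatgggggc
Hspb1, chr5:135887811-135887840, plus strand, 97 bases before the start site: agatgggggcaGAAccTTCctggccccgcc
Hsph1, chr5:149636351-149636380, minus strand, 33 bases before the nearer start site: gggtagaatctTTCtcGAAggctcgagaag

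Hspd1 and Hspe1 have the same stretch of DNA read from opposite strands, with 4 units in a row, which in the GENCODE annotation also lies inside the first exon of a longer Hspd1 transcript. The windows of Hspa1a and Hspa1b were identical, and the 250 bases before their start sites differed at 3 positions. For Dnajb1 these letters were not in the windows searched.

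The level of expression differed by about 2 orders of magnitude between the genes and kept much the same order in all groups. Hsp90ab1, the constitutive cytosolic HSP90, was the most abundant in all 22 mice (1181 ± 218 CPM, mean ± SD, n = 22) and made up 66.3% to 76.8% of the summed CPM of the 10 genes. Hsp90aa1, the stress-inducible HSP90, came next (115 ± 46.0 CPM), and Hsp90ab1 exceeded it by 6.45 to 23.9 times in single mice (median 10.5). Hspa8, the constitutive HSP70, stood at 94.9 ± 23.0 CPM, below Hsp90aa1 in 16 of 22 mice. Hspb1, a small heat shock protein also bound to the actin skeleton (59.9 ± 49.1 CPM), and Hspd1, the mitochondrial chaperonin (56.6 ± 16.9 CPM), had no clear order, since Hspb1 was above Hspd1 in only 7 of 22 mice. Hspe1, the lid of that chaperonin (44.1 ± 8.98 CPM), was below Hspd1 in 16 of 22 mice. Lowest were 4 of the 5 steeply inducible genes, all but Hspb1: Hspa1b (31.0 ± 15.2 CPM), Dnajb1, which hands clients to HSP70 (26.8 ± 10.7 CPM), Hsph1, which exchanges the nucleotide of HSP70 (17.2 ± 7.31 CPM), and Hspa1a (12.4 ± 6.11 CPM). Neighbours in this order overlapped within their SD apart from Hsp90ab1 and Hsp90aa1. Hspa1b was above its copy Hspa1a in 22 of 22 mice, by 1.55 to 4.83 times. The last 400 bases of these copies matched no other gene at 97% identity over 100 bases or more, so that this search found no place where their 3′ reads could be shared. The same search found other genes for Hspa8 (4 processed pseudogenes), Hsp90aa1 (2 processed pseudogenes, the longer match over the whole stretch), Hspd1 (2, likewise), Hspe1 (1) and Hspb1 (1), and the values of these 5 genes are uncertain, because reads that map to several places were not counted for any gene.

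**Figure D1:**
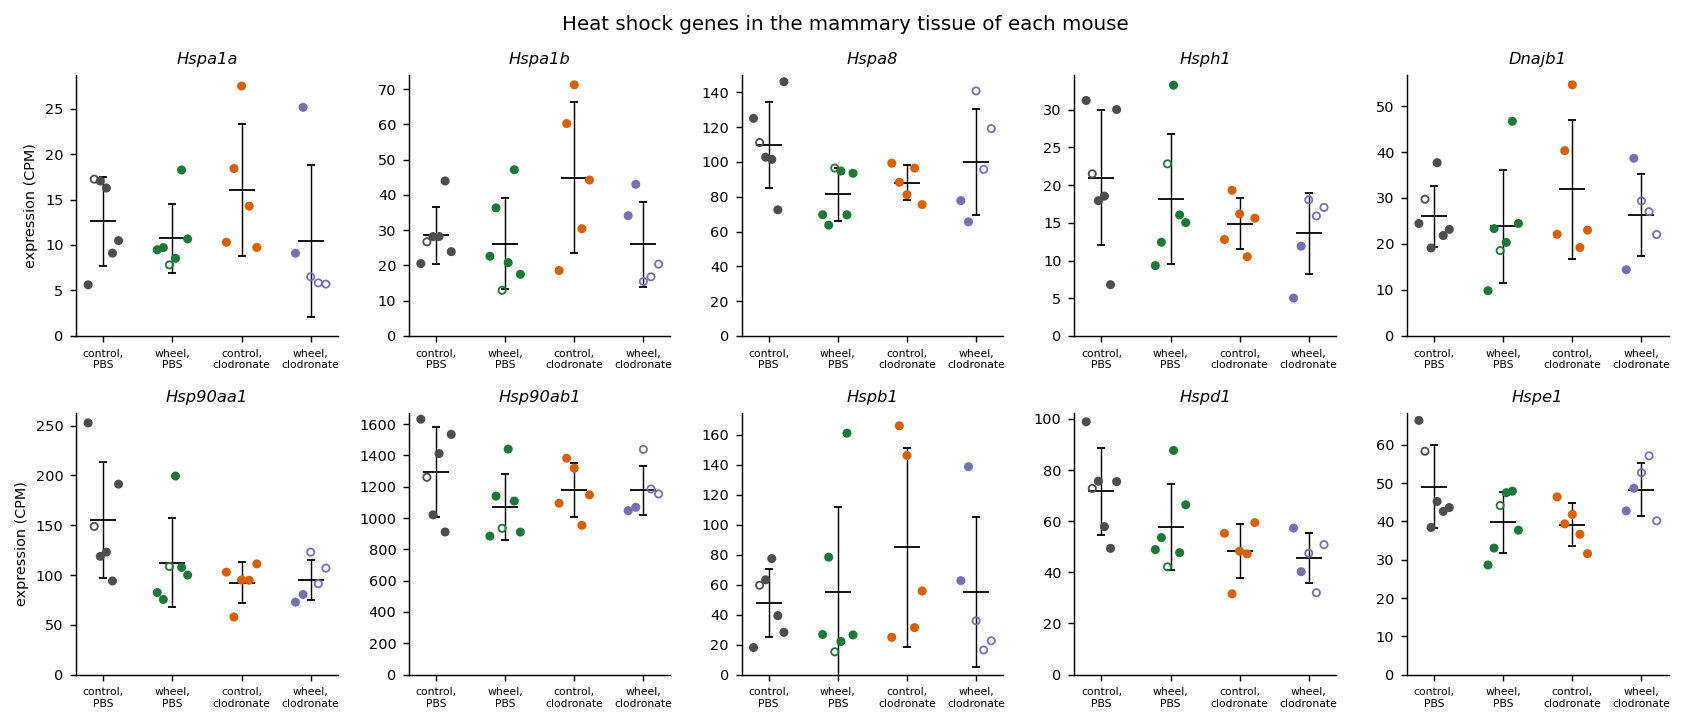
Expression in CPM (linear axes from 0) of each heat shock gene, 1 point per mouse in the 4 groups, with the mean and SD of each group as a bar; open points are the 5 mice rich in lymphocyte markers. Groups overlap in every panel, and Hspb1 spreads from 15.2 to 166 CPM while Hspe1 stays between 28.6 and 66.4 CPM.

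The genes also differed in how much they varied between mice of the same group. Hspb1 had the widest spread, with an SD within groups of 1.13 on the log2(CPM + 1) scale, at the 96.1th percentile of all genes tested (median SD 0.46). Hsph1 (0.62), Hspa1b (0.61), Hspa1a (0.61) and Dnajb1 (0.56) were also above that median, whereas Hsp90aa1 (0.44), Hspd1 (0.35), Hspa8 (0.32), Hsp90ab1 (0.26) and Hspe1 (0.26) were below it. The 5 genes above the median were those known as steeply inducible, and the 5 below it were the constitutive ones and Hsp90aa1, the stress-inducible HSP90. All of the 5 above it but Hspb1 were also the genes with the lowest levels (12.4 to 31.0 CPM on average). Whether the spread goes with level, tissue content or inducibility was not tested.

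Hspb1 was 18.0, 49.5 and 77.5 CPM (lowest, median and highest) in control mice with PBS liposomes, and 15.2, 26.6 and 161 CPM in wheel mice with PBS liposomes. With clodronate it was 24.8, 166, 146, 31.3 and 55.8 CPM in the control mice and 62.7, 139, 35.9, 16.4 and 22.5 CPM in the wheel mice. Each group but the control mice with PBS liposomes thus held 1 or 2 mice at 139 CPM or more, and all groups overlapped. Hspa1b was 20.5, 27.4 and 44.0 CPM (lowest, median and highest) in control and 12.9, 21.7 and 47.1 CPM in wheel mice with PBS liposomes. With clodronate it was 18.6, 60.2, 71.2, 30.4 and 44.2 CPM in control and 34.1, 43.0, 15.4, 16.8 and 20.4 CPM in wheel mice. The mice that were high for Hspb1 were again among the highest here.

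The first question of the design was whether running changed gene expression in the mammary tissue that received the cancer cells. Each of the 10 genes had a lower mean log2(CPM + 1) in wheel than in control mice with PBS liposomes, but no difference passed the test. For Hspb1 the mean in CPM had the opposite order (55.0 in wheel and 47.7 in control mice). By limma, 0 of 10 genes were called at an adjusted p under 0.05, against 0% of the 15138 genes tested. At an unadjusted p under 0.05, 1 of 10 was lower (Hspa8), against 4.12% of all genes, and 0 of 10 higher, against 0.799%. The median difference of the 10 was -0.24 on the log2(CPM + 1) scale, and that of all genes tested was -0.08, of which 63.8% were lower. Hspa8 was 72.5, 107 and 146 CPM (lowest, median and highest) in control mice and 63.7, 81.6 and 96.5 CPM in wheel mice. The highest wheel mouse lay below the control median, and 1 control mouse lay within the range of the wheel mice. The difference was -0.42 ± 0.18 (SE) on the log2(CPM + 1) scale, 25.2% lower, with an unadjusted p of 0.0273 and an adjusted p of 0.987 by limma. Hsp90aa1 was 94.0, 136 and 253 CPM in control and 75.4, 104 and 199 CPM in wheel mice, with a difference of -0.46 ± 0.23 (limma adjusted p = 0.987). The constitutive Hsp90ab1 was 911, 1336 and 1631 CPM in control and 884, 1021 and 1440 CPM in wheel mice, a difference of -0.27 ± 0.17. For Hspa1a, Hspa1b, Hspb1, Dnajb1 and Hsph1 the differences were smaller than for these genes (-0.22 to -0.15), with standard errors of 0.30 to 0.58. Skeletal muscle and proliferation markers were also lower in wheel mice with PBS liposomes, 8 of 8 in each list with medians of -1.97 and -0.81 and none called. With the proliferation score as a covariate the median of the 10 genes was -0.21 and Hspa8 was at -0.31, and with the muscle score they were at -0.23 and -0.50. Hspa1a and Hspa1b changed sign with the muscle score, to 0.07 and 0.05.

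With clodronate liposomes, wheel and control mice differed less evenly. By limma 0 of 10 genes were called, against 0.00661% of all genes, and 0 of 10 reached an unadjusted p under 0.05 in either direction, against 3.4% lower and 7.04% higher among all genes. The count of all genes called (1) was 118 without wheel with clodronate replicate 1 and 236 without replicate 2, and 0 of the 10 heat shock genes were among them. Replicates 1 and 2 were the only wheel mice with clodronate not rich in lymphocyte markers, and 0 of 5 control mice with clodronate were rich. Leaving out either therefore made the groups differ more in lymphocyte content. The largest differences were those of the inducible HSP70 copies, both lower in wheel mice. Hspa1a was 10.3, 18.4, 27.5, 14.3 and 9.73 CPM in the control mice and 9.09, 25.1, 6.5, 5.83 and 5.7 CPM in the wheel mice. Of the wheel mice, 4 of 5 lay below every control mouse and 1 was higher than all but 1 of them. The difference was -0.70 ± 0.37 for Hspa1a (limma unadjusted p = 0.074, adjusted p = 0.548) and -0.73 ± 0.36 for Hspa1b (unadjusted p = 0.0507, adjusted p = 0.478). The 3 wheel mice with the lowest Hspa1a were the 3 rich in lymphocyte markers. Without the 5 lymphocyte-rich mice, an alternative that leaves 2 wheel mice with clodronate, the difference was 0.03 for Hspa1a and -0.08 for Hspa1b. The other 8 genes ranged from -0.62 (Hspb1) to 0.29 (Hspe1), and the median of the 10 was -0.14, against 0.00 for all genes. Over both liposomes together, 9 of 10 genes were lower in wheel mice with a median of -0.20 (all genes -0.04), and again 0 of 10 were called, against 0% of all genes. At an unadjusted p under 0.05, 0 of 10 were lower, against 4.16% of all genes, and 0 of 10 higher, against 3.93%.

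**Figure D2:**
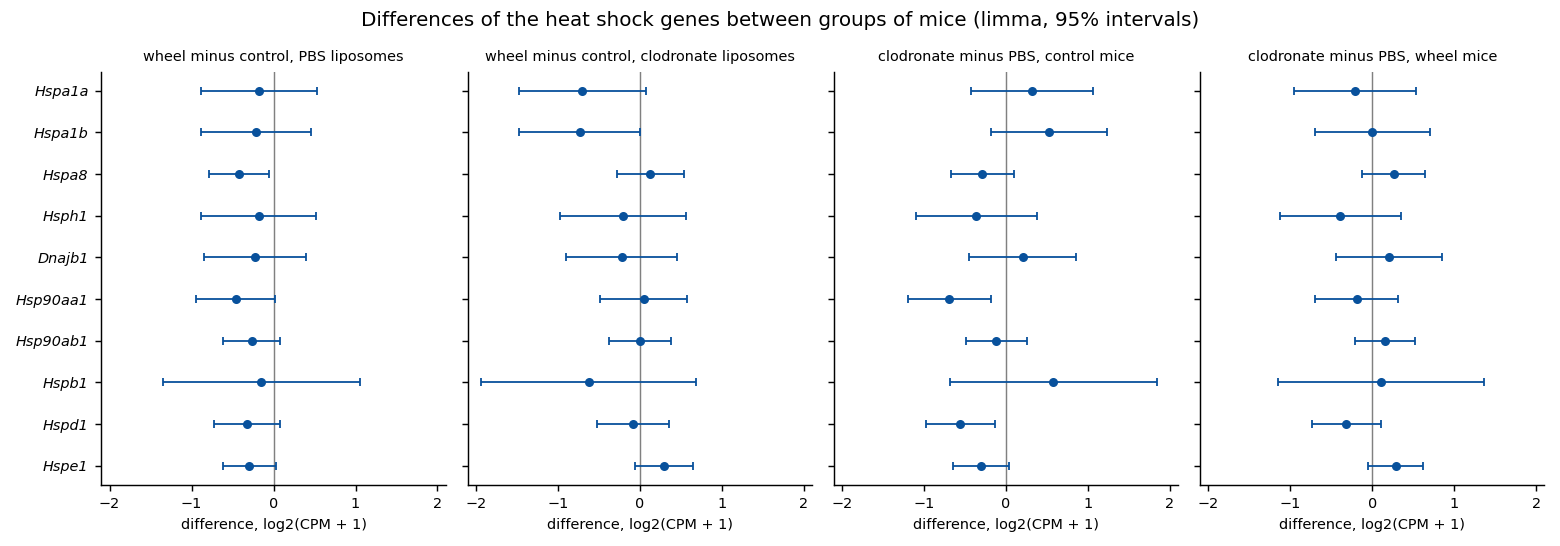
Difference of each heat shock gene between groups on the log2(CPM + 1) scale, with 95% confidence intervals from limma; the 4 panels are the wheel effect with each liposome and the clodronate effect in control and in wheel mice. With PBS liposomes all 10 points lie left of 0, from -0.46 to -0.15, and of all intervals only those of Hspa8 there and of Hsp90aa1 and Hspd1 with clodronate in control mice leave 0 out.

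The second question was what clodronate liposomes did in the same tissue. In control mice, Hsp90aa1 and Hspd1 had the most negative differences with clodronate, while Hspa1a, Hspa1b, Hspb1 and Dnajb1 had higher means, and no difference passed the test. By limma 0 of 10 genes were called, against 0% of all genes, and at an unadjusted p under 0.05, 2 of 10 were lower, against 6.08% of all genes, and 0 of 10 higher, against 0.905%. Hsp90aa1 was 103, 57.8, 95, 94.7 and 111 CPM in control mice with clodronate, against 94.0 to 253 CPM (median 136) with PBS. All 5 clodronate mice lay below all PBS mice but the lowest, whose next neighbour was at 119 CPM. The difference was -0.69 ± 0.24 (limma unadjusted p = 0.00924, adjusted p = 0.56). Hspd1 was 55.3, 31.6, 48.3, 47.2 and 59.4 CPM with clodronate, against 49.4, 74.1 and 98.9 CPM (lowest, median and highest) with PBS, and 3 of the 5 lay below every PBS mouse. The difference was -0.56 ± 0.20 (limma unadjusted p = 0.0122, adjusted p = 0.567). The differences of Dnajb1, Hspa1a, Hspa1b and Hspb1 had the opposite sign, from 0.20 ± 0.31 for Dnajb1 to 0.58 ± 0.61 for Hspb1, while Hsph1, also steeply inducible, was at -0.36 ± 0.36. Skeletal muscle markers had the sign of these 4 genes, 8 of 8 being higher with clodronate in control mice (median 1.19, none called), and macrophage markers were lower, 10 of 10 with a median of -0.36 and none called. Of all genes tested, 65.4% were lower in this comparison. Without a covariate the median of the 10 heat shock genes was -0.20, against -0.10 for all genes. With the macrophage score as a covariate, Hsp90aa1 differed by -0.53 and Hspd1 by -0.46, and the median of the 10 genes was -0.06. Proliferation markers were lower too, 8 of 8 with a median of -0.72 and none called, and with their score as a covariate the median of the 10 genes was -0.01.

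In wheel mice Hsph1 had the most negative difference with clodronate and Hspe1 the most positive, and no difference passed the test. By limma 0 of 10 genes were called, against 0.00661% of all genes, and 0 of 10 had an unadjusted p under 0.05, against 5.54% lower and 6.08% higher. Hsph1 was 5.03, 11.9, 18.0, 15.9 and 17.0 CPM with clodronate, within or below the range of the wheel mice with PBS, a difference of -0.39 ± 0.36, close to the -0.36 ± 0.36 of control mice. Hspd1 was at 57.3, 40.2, 47.5, 32.0 and 50.8 CPM with clodronate against 42.1, 51.2 and 87.7 CPM (lowest, median and highest) with PBS, a difference of -0.32 ± 0.20. Hspe1, its partner, went the other way, at 42.8, 48.7, 52.7, 57.2 and 40.2 CPM with clodronate against 28.6, 40.9 and 47.9 CPM with PBS, a difference of 0.28 ± 0.16. In 3 of 5 wheel mice with clodronate Hspe1 was above the highest PBS mouse. In the same comparison lymphocyte markers were higher, 12 of 12 with a median of 2.11, and adipocyte markers were lower, 8 of 8 with a median of -0.42, none called. Of all genes tested, 49.9% were lower. With the adipocyte score as a covariate the median of the 10 heat shock genes was -0.26, against 0.05 without it.

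Over both activities together, Hspd1 and Hsp90aa1 had the smallest p-values of the 10 genes. Hspd1 differed by -0.44 ± 0.14 on the log2(CPM + 1) scale, 26.1% lower (limma unadjusted p = 0.006, adjusted p = 0.232), and Hsp90aa1 by -0.44 ± 0.17, 26.4% lower (unadjusted p = 0.0176, adjusted p = 0.344). At an adjusted p under 0.05, 0 of 10 genes were called, against 0.205% of all genes, and at an unadjusted p under 0.05, 2 of 10 were lower, against 8.3%, and 0 of 10 higher, against 2.13%. The median of the 10 was 0.00, since 5 genes were lower and 5 higher, and both Hspa8 (-0.02) and Hspe1 (-0.01) changed sign with the other scalings. The 95% interval of the clodronate effect was narrowest for Hspe1 (-0.25 to 0.23) and widest for Hspb1 (-0.55 to 1.23), so that for Hspb1 a doubling could not be told from no change.

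The design also allowed a test of whether the wheel effect differed between the liposomes. By limma 0 of 10 interactions were called, against 0% of all genes. At an unadjusted p under 0.05, 2 of 10 were higher (a wheel effect that was more positive with clodronate), against 6.35% of all genes, and 0 of 10 lower, against 1.23%. These were Hspe1, with an interaction of 0.59 ± 0.23 (unadjusted p = 0.0184, adjusted p = 0.625), and Hspa8, with 0.55 ± 0.26 (unadjusted p = 0.0483, adjusted p = 0.655). In both genes the mean was lower in wheel than in control mice with PBS and higher in wheel mice with clodronate. For Hspa8 the second part was not seen without the lymphocyte-rich mice, an alternative that leaves 2 wheel mice with clodronate. The wheel mice with clodronate were at 77.8, 65.6, 141, 95.7 and 119 CPM, and the 3 highest were the 3 rich in lymphocyte markers. These 3 also had the highest macrophage scores of the group (5.01 to 5.26, against 4.01 and 4.26), and the parts of the 2 scores were not separated. Without the 5 lymphocyte-rich mice the wheel difference with clodronate was -0.29 for Hspa8, against 0.13 with them, and its interaction was 0.17 (limma unadjusted p = 0.558). The interaction of Hspe1 was then 0.50 (limma unadjusted p = 0.0988). For Hspe1 the group means were 49.1 ± 10.8 and 39.8 ± 7.99 CPM (SD, n = 6 each) for control and wheel mice with PBS, and 39.2 ± 5.55 and 48.3 ± 6.98 CPM (SD, n = 5 each) with clodronate. For Hspa8 they were 110 ± 24.8 and 81.3 ± 15.1 CPM with PBS, and 88.2 ± 10.0 and 99.8 ± 30.6 CPM with clodronate.

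Between mice of the same group, the 10 genes did not move as a single set. Correlations were computed over the 22 mice on deviations of log2(CPM + 1) from the group means, with p-values from 100000 permutations of the mice within groups, adjusted over the 45 pairs. Of these pairs, 13 had an adjusted p under 0.05 by Pearson r, 11 positive and 2 negative, and 11 by Spearman rho. Pairs of other genes were not counted, so whether this is many for genes of this tissue was not tested. The 2 farthest mice, left out below, are those with the most extreme deviations in the second gene of a pair, or in the marker score. The closest pair was Hspa1b with Hspb1 (Pearson r = 0.87, permutation p = 3e-05, Spearman rho = 0.89, p = 1e-05, the smallest that the permutations can give, adjusted p = 0.0006 and 0.00045, r = 0.82 without the 2 farthest mice). The inducible copies Hspa1a and Hspa1b followed each other less closely (r = 0.65, permutation p = 0.00127, rho = 0.63, p = 0.00397, adjusted p = 0.00816 and 0.0223, r = 0.60 without the 2 farthest mice), and without the lymphocyte-rich mice r was 0.56 with an adjusted permutation p of 0.0846. The most opposed pair was Hspa1b with Hspa8, the inducible and the constitutive HSP70 (r = -0.75, permutation p = 4e-05, rho = -0.79, p = 9e-05, adjusted p = 0.0006 and 0.00202, r = -0.69 without the 2 farthest mice). Both HSP90 genes had r = 0.59 (permutation p = 0.0132, rho = 0.52, p = 0.0271, adjusted p = 0.0456 and 0.0814), which was 0.38 without the 2 mice farthest in Hsp90ab1. Without the lymphocyte-rich mice it was 0.57, with an adjusted permutation p of 0.125. When single mice were left out, r ran from 0.47 to 0.77 and the call held for 7 of 22 mice, so it was near the threshold.

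Sorted by these values, and therefore with no test of the sorting, the genes fell into a set of 4 (Hspa1a, Hspa1b, Hspb1 and Dnajb1), whose 6 pairs had r from 0.45 to 0.87, and a set of 6 (Hsph1, Hspa8, Hsp90aa1, Hsp90ab1, Hspd1 and Hspe1), whose 15 pairs had r from 0.10 to 0.76. Between the sets, 19 of 24 pairs had a negative r, from -0.75 to 0.47 in all. Without the 5 mice rich in lymphocyte markers the ranges were 0.56 to 0.86 within the 4 genes and 0.32 to 0.83 within the 6. Hsph1, steeply inducible by heat in cells, thus stood with the constitutive genes and with Hsp90aa1, the stress-inducible HSP90. The shared promoter of Hspd1 and Hspe1 went with the weakest link within its set, r = 0.10 (permutation p = 0.674, rho = 0.05, p = 0.845, adjusted p = 0.758 and 0.905, r = -0.11 without the 2 farthest mice), although both carry the same 4 heat shock units printed above. Without the lymphocyte-rich mice r of this pair was 0.32, again the lowest of the set. Both genes have near-identical 3′ copies elsewhere, so their values, and with them this r, are uncertain. Hspd1 exceeded Hspe1 in all 6 control mice with PBS but in only 2 of 5 wheel mice with clodronate, and the ratio of the 2 genes ran from 0.56 to 1.97.

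**Figure D3:**
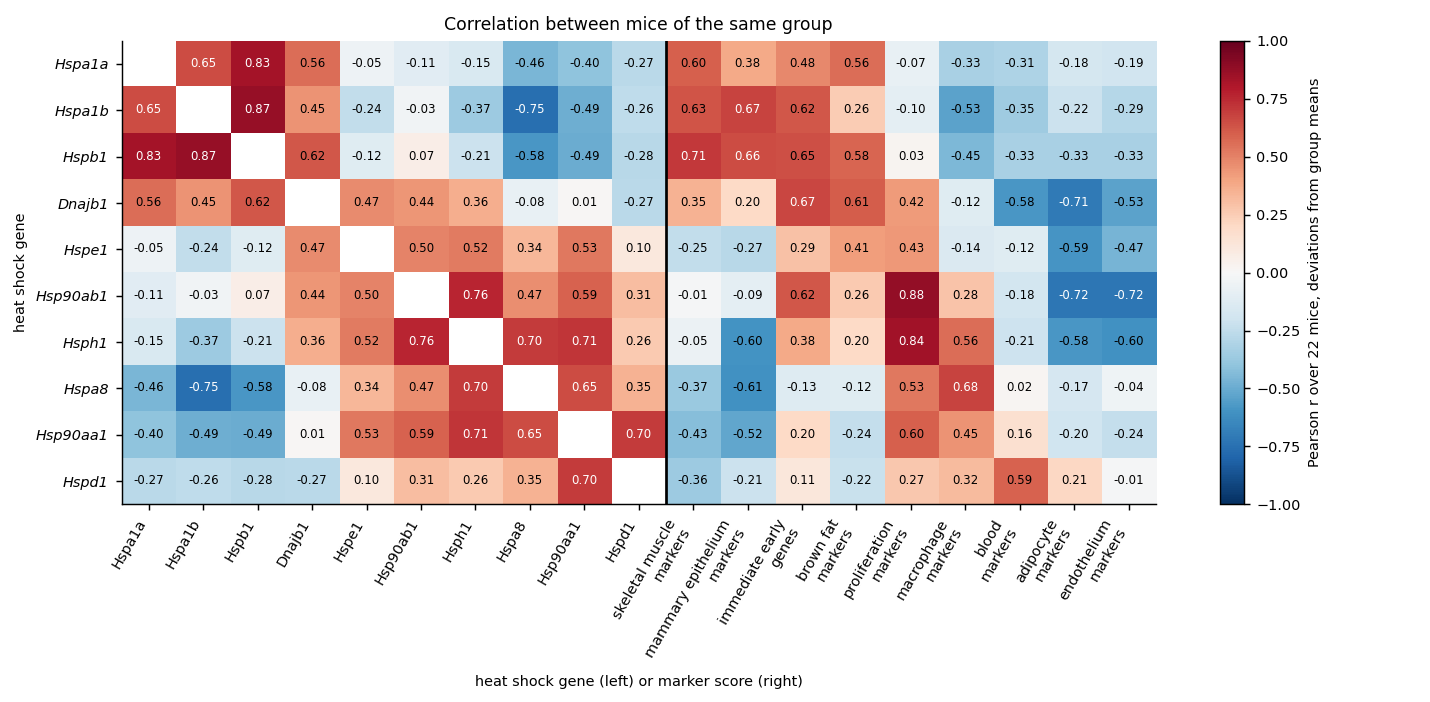
Pearson r over 22 mice between each heat shock gene (rows) and the other heat shock genes (left of the line) or marker scores (right), on deviations from group means, from blue (-1) to red (1). Hspa1a, Hspa1b, Hspb1 and Dnajb1 form a red corner with r of at least 0.45, and Hsp90ab1 and Hsph1 are dark red under proliferation markers (0.88 and 0.84).

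The same deviations were compared with scores of 10 marker lists, 100 relations in all, of which 28 had an adjusted p under 0.05 by Pearson r and 16 by Spearman rho. How many of all genes tested follow these scores was not computed, so the counts do not set the heat shock genes apart from other genes. Hsp90ab1 followed the proliferation markers (Mki67, Top2a, Cdk1 and 5 more) most closely of all (r = 0.88, permutation p = 1e-05, the smallest possible, rho = 0.87, p = 1e-05, adjusted p = 0.0005 for both, r = 0.83 without the 2 farthest mice). Hsph1 did likewise (r = 0.84, permutation p = 1e-05, rho = 0.87, p = 1e-05, adjusted p = 0.0005 for both, r = 0.79 without the 2 farthest mice). Across all mice Hsp90ab1 ran from 884 CPM in a wheel mouse with a proliferation score of 1.87 to 1631 CPM in a control mouse with a score of 4.89, both with PBS liposomes. Hsph1 was lowest with a proliferation score of 2.62 (5.03 CPM) and highest with one of 5.04 (33.3 CPM). Without the lymphocyte-rich mice r was 0.93 for Hsp90ab1 and 0.82 for Hsph1. Hsp90ab1 also ran against endothelium markers (r = -0.72, permutation p = 0.00033, rho = -0.66, p = 0.00279, adjusted p = 0.0098 and 0.0254, r = -0.71 without the 2 farthest mice). It ran against adipocyte markers as well (r = -0.72, permutation p = 0.00049, rho = -0.75, p = 0.00034, adjusted p = 0.0098 and 0.0113, r = -0.69 without the 2 farthest mice). These signs were not particular to Hsp90ab1. Of the 10 genes, 0 had a positive r with endothelium markers and 1 with adipocyte markers (Hspd1, 0.21). At an adjusted p under 0.05 by r, 2 genes were negative with endothelium and 4 with adipocyte markers, Hsph1 among both (r = -0.60 and -0.58).

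Other genes were compared with the other scores. Hspb1 rose with skeletal muscle markers (r = 0.71, permutation p = 0.00087, rho = 0.69, p = 0.00162, adjusted p = 0.0112 and 0.0192, r = 0.62 without the 2 farthest mice), and muscle is known to make this protein in quantity. The control mouse with clodronate that had the highest Hspb1 (166 CPM) also had the highest muscle score (11.6). The wheel mouse with PBS at 161 CPM had a muscle score of 5.29, but the highest epithelium score of all mice (6.88). Hspb1 rose nearly as closely with mammary epithelium markers (r = 0.66, permutation p = 0.00204, rho = 0.67, p = 0.00152, adjusted p = 0.0204 and 0.0192, r = 0.53 without the 2 farthest mice). Hspa1b rose with mammary epithelium markers (r = 0.67, permutation p = 0.00044, rho = 0.67, p = 0.00173, adjusted p = 0.0098 and 0.0192, r = 0.55 without the 2 farthest mice), with r = 0.53 and an adjusted permutation p of 0.1 without the lymphocyte-rich mice. Hspa1b rose with skeletal muscle markers too (r = 0.63, permutation p = 0.00555, rho = 0.56, p = 0.0133, adjusted p = 0.0396 and 0.0664, r = 0.49 without the 2 farthest mice). Dnajb1 rose as adipocyte markers fell (r = -0.71, permutation p = 0.0009, rho = -0.74, p = 0.00083, adjusted p = 0.0112 and 0.0166, r = -0.66 without the 2 farthest mice). Immediate early genes such as Fos and Egr1, which respond to handling within minutes, rose with 4 of the 10 genes at an adjusted p under 0.05 by r. The closest of these was Dnajb1 (r = 0.67, permutation p = 0.00549, rho = 0.68, p = 0.00447, adjusted p = 0.0396 and 0.0319, r = 0.52 without the 2 farthest mice). Hspa8 ran against mammary epithelium markers (r = -0.61, permutation p = 0.00701, rho = -0.66, p = 0.00396, adjusted p = 0.041 and 0.0305, r = -0.60 without the 2 farthest mice), with r = -0.52 without the lymphocyte-rich mice. It rose with macrophage markers (r = 0.68, permutation p = 0.00611, rho = 0.57, p = 0.0202, adjusted p = 0.0407 and 0.0776, r = 0.56 without the 2 farthest mice), with r = 0.53 and an adjusted permutation p of 0.229 without the lymphocyte-rich mice. Hspd1 rose with blood markers (r = 0.59, permutation p = 0.00802, rho = 0.64, p = 0.00363, adjusted p = 0.041 and 0.0302, r = 0.54 without the 2 farthest mice), with r = 0.60 and an adjusted permutation p of 0.1 without the lymphocyte-rich mice. The relations of Hspa8 with macrophage markers and of Hspd1 with blood markers were past the threshold by little. Leaving out single mice took the adjusted permutation p up to 0.13 for Hspa8 with macrophage markers, where the call held for 14 of 22 mice left out. For Hspd1 it went up to 0.094, and the call held for 7 of 22. The lymphocyte score fell into separate clusters of mice and was compared only over the 17 mice without high lymphocyte markers, where Hspa1a (r = 0.68, permutation p = 0.00867, rho = 0.72, p = 0.00919, adjusted p = 0.041 and 0.0517) and Dnajb1 (r = 0.66, permutation p = 0.0109, rho = 0.63, p = 0.0276, adjusted p = 0.0473 and 0.0941) had an adjusted p under 0.05 by r but not by rho. In these 17 mice the lymphocyte score was only 1.00 to 1.45, so both relations were with markers near the floor. In control mice with clodronate, 4 of the 12 markers were at the floor in all 5 mice. Scores and genes come from the same libraries, and their parts in the group differences were not separated.

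**Figure D4:**
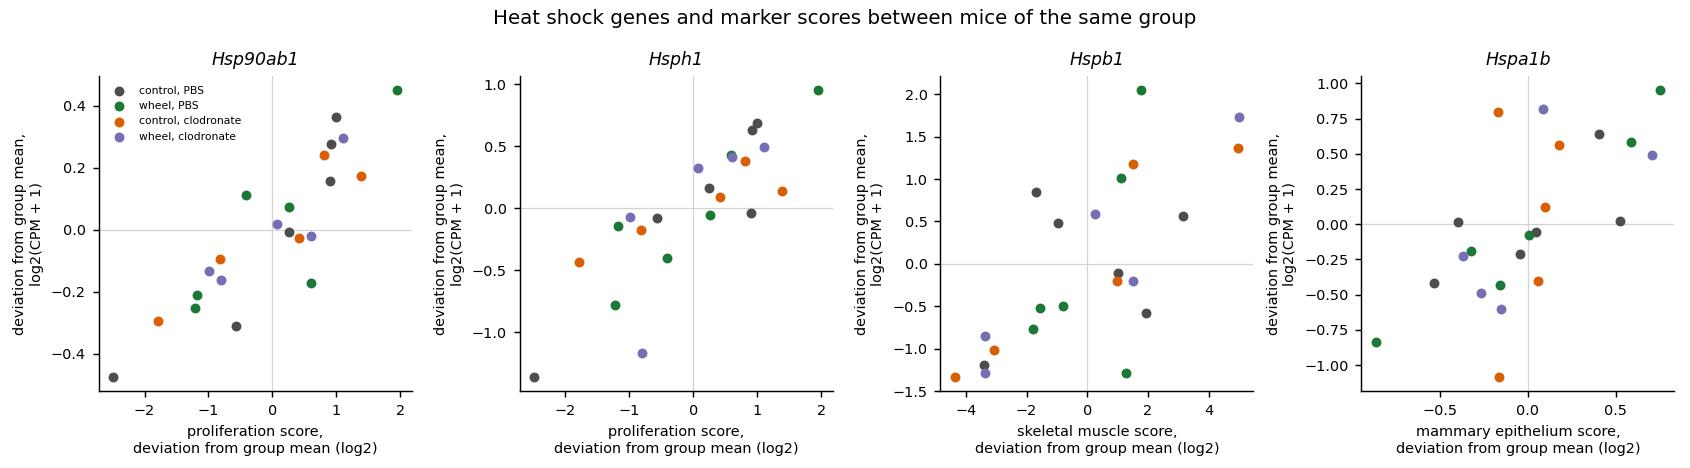
Deviation from the group mean of 4 heat shock genes (vertical, log2(CPM + 1)) against that of a marker score (horizontal, log2), 1 point per mouse, coloured by group. Hsp90ab1 and Hsph1 rise with proliferation markers over the whole range (r = 0.88 and 0.84), and the points for Hspb1 with muscle (0.71) and Hspa1b with epithelium (0.67) scatter more.

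By a fixed rule, the genes most like the members over the 22 mice were named, as a description with no test. The mean z-score of the 10 genes was most closely followed by Hbegf, a growth factor of the EGF family (r = 0.89, 1 to 30 CPM), Ckap4, a protein of the ER (r = 0.85, 25.0 to 99.7 CPM), Plk1, a mitotic kinase (r = 0.85), Bok (r = 0.84) and Dnph1 (r = 0.84). The mean of Hspa1a and Hspa1b was followed by Nectin4, an epithelial adhesion molecule (r = 0.92, 7.51 to 75.6 CPM), Clip4 (r = 0.91), Slc2a12, a glucose transporter (r = 0.91), Cobl (r = 0.91) and Crabp2, which binds retinoic acid (r = 0.91).

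Other genes of the chaperone system were counted in lists that did not include the 10 genes. Of 13 co-chaperones and other targets of HSF1 that passed the filter (Hspa1l did not), 12 had a lower mean in wheel than in control mice with PBS. This stood against 63.8% of all genes, and none was called. With clodronate over both activities 12 of 13 were lower too, against 57.4% of all genes, and 1 was called, Serpinh1, which holds collagen during its folding in the ER. Serpinh1 was 82.3, 123 and 195 CPM (lowest, median and highest) in control and 41.8, 95.6 and 105 CPM in wheel mice with PBS. With clodronate it was 41.6, 42.8, 38.9, 55.1 and 88.9 CPM in control and 76.5, 39.7, 47.4, 41.9 and 62.4 CPM in wheel mice. All but 1 PBS mouse were above 80 CPM, and all but 1 clodronate mouse below it. The difference was -0.99 ± 0.19 (limma adjusted p = 0.0228, one of 31 genes called, 0.205%), and it stayed between -0.999 and -0.874 under 16 alternatives. The limma adjusted p passed 0.05 in 9 of them and reached 0.197 without the lymphocyte-rich mice. In the same comparison adipocyte markers were lower, 8 of 8 with a median of -0.41, as were macrophage markers, 10 of 10 with a median of -0.20, and the limma adjusted p of Serpinh1 was 0.145 with the adipocyte score as a covariate and 0.0692 with the macrophage score. Leaving out single mice gave adjusted p-values of 0.00915 to 0.0704 by limma. The call was lost without control with PBS replicate 1 or 3, wheel with PBS replicate 6, control with clodronate replicate 2 or 3, or wheel with clodronate replicate 2 or 3.

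Of 6 chaperones and proteases of the ER and mitochondria, 6 were lower with clodronate (median -0.31, all genes -0.04) and 0 were called by limma, with 4 lower at an unadjusted p under 0.05, against 8.3% of all genes. Lonp1, the protease of the mitochondrial matrix, came closest, at 33.4, 43.2 and 53.7 CPM (lowest, median and highest) in control and 37.9, 45.3 and 57.6 CPM in wheel mice with PBS, and 22.9 to 38.0 CPM and 30.2 to 41.5 CPM with clodronate (difference -0.44 ± 0.11, limma adjusted p = 0.0899). Of the matrix chaperonin, Hspd1 was at -0.44 and its partner Hspe1 at -0.01 in the same comparison. The 8 subunits of the cytosolic chaperonin TRiC, which folds actin and tubulin, were all lower in wheel mice with PBS, as were 63.8% of all genes, with a median of -0.30, none called and 3 lower at an unadjusted p under 0.05, against 4.12% of all genes. Cct7 had the smallest p (-0.41 ± 0.15, limma adjusted p = 0.987). All 8 subunits were also lower with clodronate in control mice, as were 65.4% of all genes, with a median of -0.28 and none called. Both comparisons are against the same control mice with PBS. With clodronate liposomes, 3 of 8 were lower in wheel than in control mice. The 5 small heat shock proteins tested besides Hspb1 (Hspb3 did not pass the filter) were all lower in wheel mice over both liposomes (median -0.56, none called, 2 at an unadjusted p under 0.05, against 4.16% of all genes, of which 57.3% were lower in all), and Cryab, the lens and muscle crystallin, had a difference of -1.17 ± 0.34 (adjusted p = 0.532 by limma). Skeletal muscle markers were lower in the same comparison, 8 of 8 with a median of -1.56, and Cryab reached 305 CPM in the control mouse with clodronate that had the highest muscle score. With PBS, Cryab was 59.8 to 153 CPM in control and 22.9 to 70.8 CPM in wheel mice. Among those control mice the highest Cryab went with the highest muscle score (8.58), but among the wheel mice the lowest Cryab did (5.29). A relation of Cryab to the muscle score was not tested. Among the partners of HSP70 (9), the partners of HSP90 (6) and the regulators of the response (4), none was called in any comparison. Their smallest p-values belonged to Dnajc7 (0.41 ± 0.13, wheel over both liposomes, limma adjusted p = 0.532), Cdc37, which brings kinases to HSP90 (-0.39 ± 0.16, clodronate in wheel mice, limma adjusted p = 0.328), and Hsbp1, which binds HSF1 (-0.19 ± 0.08, wheel over both liposomes, limma adjusted p = 0.6).

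**Figure D5:**
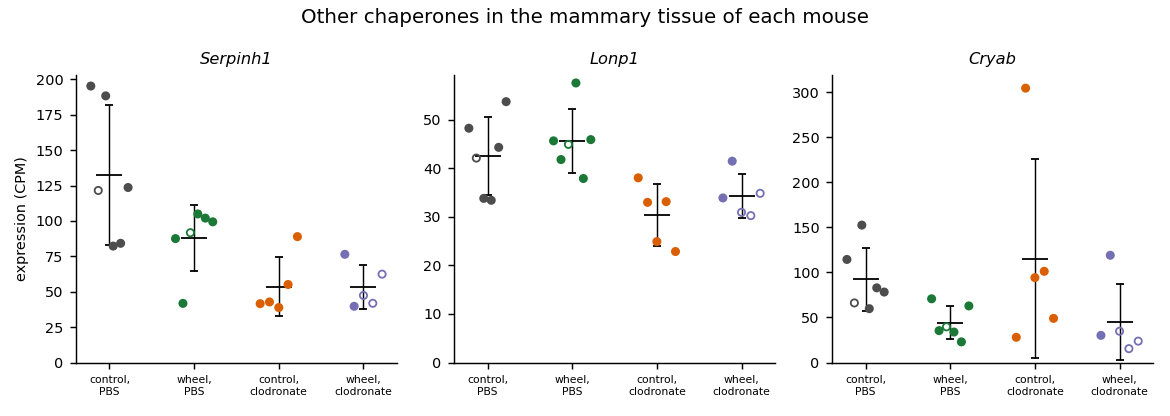
Expression in CPM (linear axes from 0) of Serpinh1, Lonp1 and Cryab, 1 point per mouse in the 4 groups, with the mean and SD of each group; open points are mice rich in lymphocyte markers. Serpinh1 sits at 38.9 to 88.9 CPM with clodronate and at 41.8 to 195 CPM with PBS, and Cryab reaches 305 CPM in a single mouse.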

How the data were processed

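RNA of mammary tissue holding EO771 cells was measured in 22 mice. The authors mapped reads to the mouse genome (STAR 2.5.3a and GRCm38, per the submitters' processing notes) and deposited, per mouse, a signal for each gene in CPM, with values below 1 raised to 1. The annotation used for counting was not given in the sources used here. That floor hides genes under 13 to 20 reads, so count tests were not used. Groups and replicate numbers came from the labels. The members and lists were chosen with earlier results of these data known.

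Values were taken as log2(CPM + 1) for genes that exceeded the floor in 5 or more mice and tested with limma 3.58.1 in R 4.3.3 (4 group means, eBayes with trend, Benjamini-Hochberg over 15138 genes). This scale understates changes of low genes. Correlations used numpy 2.4.6, and 3′ copies blastn 2.17.0. Both statistics were tested on simulated data. Named were the 10 members, list genes past an adjusted p of 0.05 or else the smallest p per list, and the 5 genes most like the members. Nothing in the labels ties mice to litters or cages. The 4 rows of unassigned reads in each file entered no test.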

Additional observations from a re-analysis of the deposited data

Results flagged for a closer look

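Of 68 gene and group combinations (the 10 heat shock genes and 7 further chaperone genes in 4 groups), 5 held a mouse that lay far from the others of its group, where chance gives about 1 in 20, or 3.4. Hspa1a was 18.2 CPM in wheel with PBS replicate 5, against 10.7 CPM in the next mouse. Hsph1 was 6.80 CPM in control with PBS replicate 5, against 17.9 CPM in the next mouse, and this mouse had the lowest proliferation score of its group (1.39). Hsp90aa1 was 57.8 CPM in control with clodronate replicate 2, against 94.7 CPM in the next, and this mouse had the highest muscle score of all (11.6). In wheel with PBS replicate 4, Hsp90aa1 was 199 CPM, against 109 CPM in the next mouse, and this mouse had the highest proliferation score of all (5.04). Serpinh1 was 41.8 CPM in wheel with PBS replicate 2, against 87.5 CPM in the next. No interaction of wheel and clodronate passed the test in the 10 genes.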

How the results depend on the processing

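In each of the 7 comparisons, 0 of 10 heat shock genes were called by limma under all 16 or 17 alternatives and without each of the 22 mice. The median difference of the 10 genes moved by more than the spread between mice (0.289) once, to -0.26 for clodronate in wheel mice with the adipocyte score as a covariate (0.05 without it). That spread was larger than any of the medians (-0.24 to 0.12), so a median could reach 0 without being counted as moved. For clodronate in control mice it went from -0.20 to -0.01 with the proliferation score, which was not counted. Leaving out single mice gave medians of -0.36 to -0.20 for the wheel with PBS, -0.20 to 0.01 for the wheel with clodronate, and -0.27 to -0.13 for clodronate in control mice. With upper-quartile scaling, the median of all genes moved by -0.10 for the interaction, and the wheel median with PBS went from -0.24 to -0.15. Without single mice, the number of all genes called ran from 0 to 236 for the wheel with clodronate (1 with all mice), from 0 to 38 for clodronate in control mice (0), from 0 to 51 for clodronate in wheel mice (1) and from 9 to 146 for clodronate over both activities (31). Under the other alternatives the last of these ran from 0 (without the lymphocyte-rich mice or with the adipocyte score) to 128 (with the proliferation score), against 31. Taking the labels' replicate number as a block gave 11, and 0 of 10 heat shock genes were called in any comparison. The numbers did not pair the mice (correlations of -0.39 to 0.52 between mice of the same number). Without the lymphocyte-rich mice, added after seeing the data, 8 of 45 pairs of genes were correlated at an adjusted p under 0.05, against 13. The correlation of Hspd1 with Hspe1 ran from -0.072 to 0.215 without single mice and was 0.32 without the lymphocyte-rich mice. Changes under the reads of 1 CPM were not detectable.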
